A study of Mus musculus with 10 samples.

Results

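The genes described here act in mitosis: the kinases that start it, the spindle and kinetochore proteins that move the chromosomes, and the factors that end it. They are 48 of the 23337 genes in a deposited count table of right atria from adult mice. The 48 genes were named in a list, and that list was chosen because cell cycle genes were higher in the *Tbx5* mutant mice of these same samples, so the difference between the groups is given below as a description and carries no test. Bulk RNA of the right atrium was sequenced from 4 control mice, called M1, M2, F1 and F2 below, and from 6 *Tbx5* mutants, 3 of them labelled male (M1, M2, M3) and 3 female (F1, F2, F3).

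The mutant mice are labelled as carrying a Cre recombinase expressed from the ubiquitous R26 promoter that removes *Tbx5*, which encodes a T-box transcription factor of the atria. Tamoxifen activates this Cre, and exon 3 of *Tbx5* is then cut out in every cell type in which the Cre works, not in heart muscle cells alone. The protocol, given for all samples alike, states intraperitoneal tamoxifen at 0.167 mg per day for 3 days and dissection 1 week later. The genotype of the controls is labelled only as Control, and whether they carried the Cre or the floxed allele is not stated for these mice. The strain is given as a mixture in both groups, and the age as 8 to 10 weeks in one field and 6 to 8 weeks in another. Nothing in the labels says that any library pooled several animals.

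Several libraries stood apart or went against their labels. Total counts ran from 5703775 to 7095141 per library. In mutant M3, 38.91% of the counts fell on the ribosomal RNA gene *Rn45s* (Wilson 95% interval 38.87% to 38.95%, counting error only), against 1.49% or less in the other 9 libraries. *Tbx5* itself, counted over the whole gene, was at 184 to 224 CPM (reads per 1e+06 reads of the library, whose size was scaled by the TMM method) in controls and 275 to 475 CPM in the mice labelled mutant. A whole-gene count does not test whether exon 3 was removed. *Xist*, expressed from the inactive X chromosome of females, and the Y-linked *Ddx3y* went against the labelled sex in all 4 control libraries and in none of the 6 mutant libraries. Groups below are therefore named as labelled.

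A cell enters mitosis when Cdk1, bound to cyclin A or B, is switched on by Cdc25 phosphatases. Aurora and Polo kinases then build a spindle of microtubules, kinesin motors move along it, and the kinetochore ties each centromere to it. The spindle checkpoint holds the anaphase-promoting complex back until every kinetochore is attached, after which sister chromatids separate and the cell divides. Messenger RNAs of these genes are abundant in cycling cells and scarce in cells that have left the cycle, as most cells of the adult heart have.

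Many genes of this kind carry in their promoters a cell cycle genes homology region (CHR), which is bound by complexes built on the MuvB core. Many also carry CCAAT boxes, which are bound by NF-Y. The CHR was searched here only as the letters TTTGAA. The choice of the 48 genes did not use their promoters. RefSeq promoters (build GRCm38.p6, 250 bases before to 50 bases after the start) were matched by symbol for 39 of the 48 genes. *Ccna2*, *Cdc25c*, *Foxm1*, *Pbk*, *Aurkb*, *Incenp*, *Spc24*, *Kif20a* and *Tpx2* had no match. The RefSeq start lay within 50 bases of the GENCODE gene start for 32 of the 39. Both strings were searched on both strands, and a match of one can share at most 1 base with a match of the other. Other spellings of the CHR were not searched, so a promoter without a match is not shown to lack one. The stretches below run from 120 bases before to 30 bases after the start, 5′ to 3′ on the strand of the gene, with CHR and CCAAT matches on either strand in capitals. They were picked after the matches and the expression values were known: 5 genes with both strings near the start (*Cdk1*, *Ccnb2*, *Cdc20*, *Kif23* and *Top2a*), one with a high fold change and no CHR match (*Ccnb1*), one with a CHR match whose mRNA was not higher in the mutants (*Cenpa*), and one with a small fold change and no CHR match (*Cdc25b*).
Cdk1: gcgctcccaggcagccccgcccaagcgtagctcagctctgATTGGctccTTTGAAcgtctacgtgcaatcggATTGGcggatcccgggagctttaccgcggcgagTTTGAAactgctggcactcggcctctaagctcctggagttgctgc
Ccnb1: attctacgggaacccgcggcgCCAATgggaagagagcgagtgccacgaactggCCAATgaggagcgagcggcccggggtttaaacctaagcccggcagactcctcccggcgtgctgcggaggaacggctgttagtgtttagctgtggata
Ccnb2: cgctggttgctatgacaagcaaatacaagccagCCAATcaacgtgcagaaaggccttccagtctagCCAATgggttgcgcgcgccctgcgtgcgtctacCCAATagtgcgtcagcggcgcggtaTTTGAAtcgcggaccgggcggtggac
Cdc20: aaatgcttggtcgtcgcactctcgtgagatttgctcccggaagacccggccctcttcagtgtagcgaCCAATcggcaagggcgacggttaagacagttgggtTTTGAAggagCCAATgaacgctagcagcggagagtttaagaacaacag
Kif23: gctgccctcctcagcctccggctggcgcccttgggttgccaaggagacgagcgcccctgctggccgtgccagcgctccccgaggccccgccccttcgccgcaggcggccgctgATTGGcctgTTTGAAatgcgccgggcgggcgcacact
Top2a: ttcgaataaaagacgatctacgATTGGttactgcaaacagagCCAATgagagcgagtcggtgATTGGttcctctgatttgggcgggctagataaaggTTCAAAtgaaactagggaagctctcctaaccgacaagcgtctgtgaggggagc
Cenpa: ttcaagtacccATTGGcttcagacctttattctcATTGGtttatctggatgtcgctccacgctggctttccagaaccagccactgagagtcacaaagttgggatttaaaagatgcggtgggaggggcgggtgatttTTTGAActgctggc
Cdc25b: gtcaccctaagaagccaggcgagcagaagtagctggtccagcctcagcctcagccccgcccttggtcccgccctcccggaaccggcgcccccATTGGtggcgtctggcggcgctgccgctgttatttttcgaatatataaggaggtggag

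In mouse genome coordinates these stretches are chr10:69352883-69353032 (minus strand) for *Cdk1*, chr13:100786457-100786606 (minus) for *Ccnb1*, chr9:70421525-70421674 (minus) for *Ccnb2*, chr4:118437314-118437463 (minus) for *Cdc20*, chr9:61946770-61946919 (minus) for *Kif23*, chr11:99024160-99024309 (minus) for *Top2a*, chr5:30666766-30666915 (plus) for *Cenpa* and chr2:131186828-131186977 (plus) for *Cdc25b*. In *Cdk1* the CHR began 71 and 15 bases before the start, and CCAAT began 80 and 48 bases before it. *Top2a* showed its CHR 23 bases before the start and 3 CCAAT boxes further upstream in the printed stretch. In *Cenpa* the RefSeq start lay 109 bases downstream of the GENCODE start, and in *Ccnb1* 84 bases downstream.

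A CHR match began within 50 bases of the start in 25 of the 39 promoters (64.1%). The same was found in 2.84% of the 9052 protein-coding genes that were tested for expression here and had a promoter, and in 4.92% of all 27025 genes of the promoter table. CCAAT occurred anywhere in the window in 74.4% of the 39 promoters, against 38.9% of the tested protein-coding genes. Both together, with the CHR near the start, were found in 22 of the 39 (56.4%), against 1.46%. Among genes of S phase, which copy DNA before mitosis, 0 of 22 promoters had a CHR match within 50 bases of the start, while 59.1% had a CCAAT box. The matches are strings of letters and not shown to be bound in the atrium. *Ccnb1* and *Bub1*, among the genes with the highest fold changes, had no CHR match in the window, and *Cenpa*, which was not higher in the mutants, had one.

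**Figure D1:**
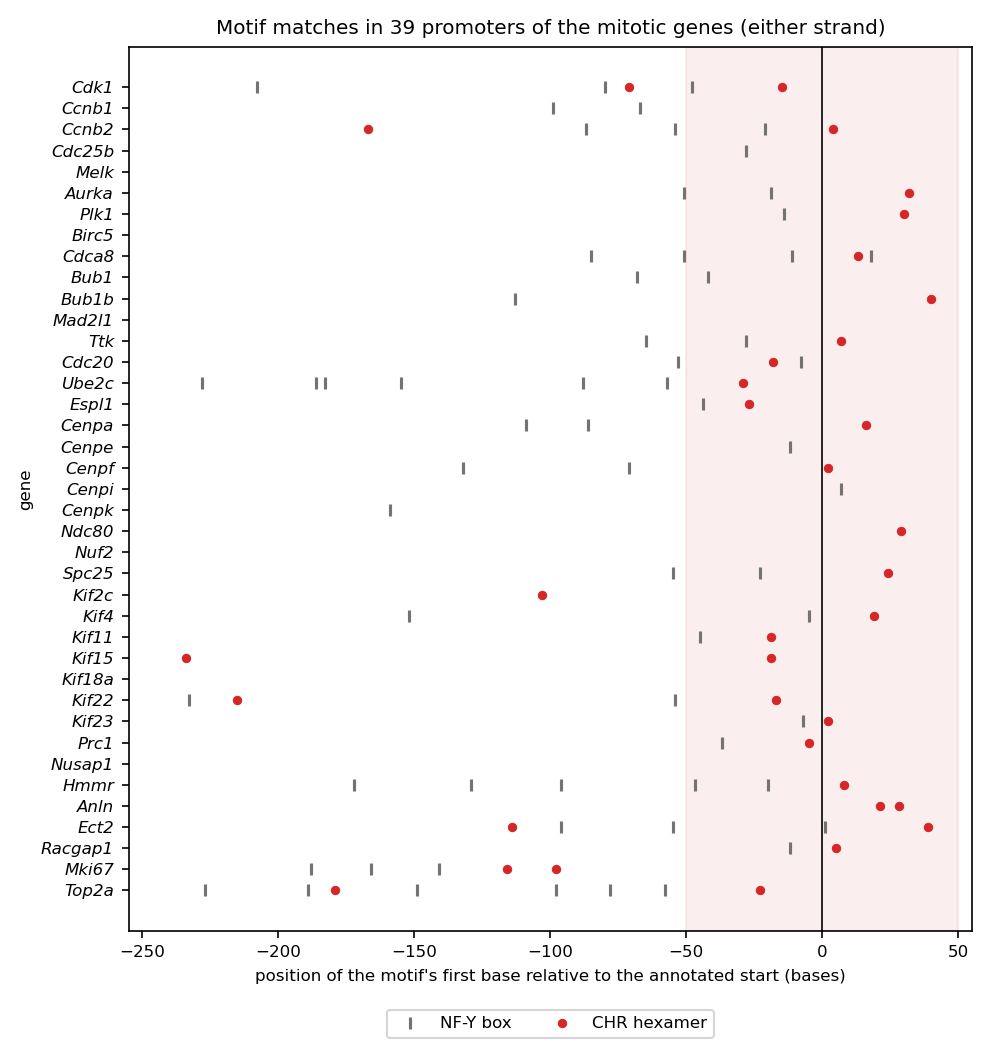
Position of the first base of each CHR match (red circles) and each CCAAT match (grey ticks, labelled NF-Y box), relative to the RefSeq start, in 39 promoters of the mitotic genes. Binding was not measured. Each line is one gene and shading marks 50 bases on each side. The red circles gather in the shaded band, where 25 of the 39 genes have one.

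The summed level of the 48 genes was 116.6 CPM in control M1, 141.8 in control M2, 102.1 in control F1 and 97.45 in control F2. In the mutants it was 539.4 in F1, 375.1 in F2, 298.5 in F3, 741.4 in M1, 679.6 in M2 and 333.8 in M3. The lowest mutant, F3, thus lay above the highest control, M2. The means were 114.5 ± 19.95 CPM in controls (SD, n = 4) and 494.6 ± 187 CPM in mutants (SD, n = 6), a ratio of 4.32. In bulk tissue, more cells in mitosis and more of these mRNAs per cell cannot be told apart.

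Of the 48 genes, 46 passed the filter on low counts, and for 19 of these no control library reached the level the filter asks for (about 1.58 CPM), so they passed through the mutant libraries alone. All 44 genes that met the call rule (adjusted p under 0.05 in edgeR, fold change over 1.5 and mean deposited control signal over 1) were higher in the mutants. Over all 13084 genes tested, 8.50% met the rule upward and 7.16% downward. In 42 of the 48 genes every mutant mouse lay above every control mouse, a pattern found in 11.7% of all genes tested. This share applies also to the genes without overlap given by role below. The median log2 fold change was 2.54 over the 46 genes, 2.54 over all 48 in a fit without the filter, and -0.005 over all genes tested. Since the list was picked for this difference, these counts describe it and are not evidence for it. The 4 genes that did not meet the rule were *Cdc25b*, *Cenpa*, *Cdc25c* and *Cenpk*.

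**Figure D2:**
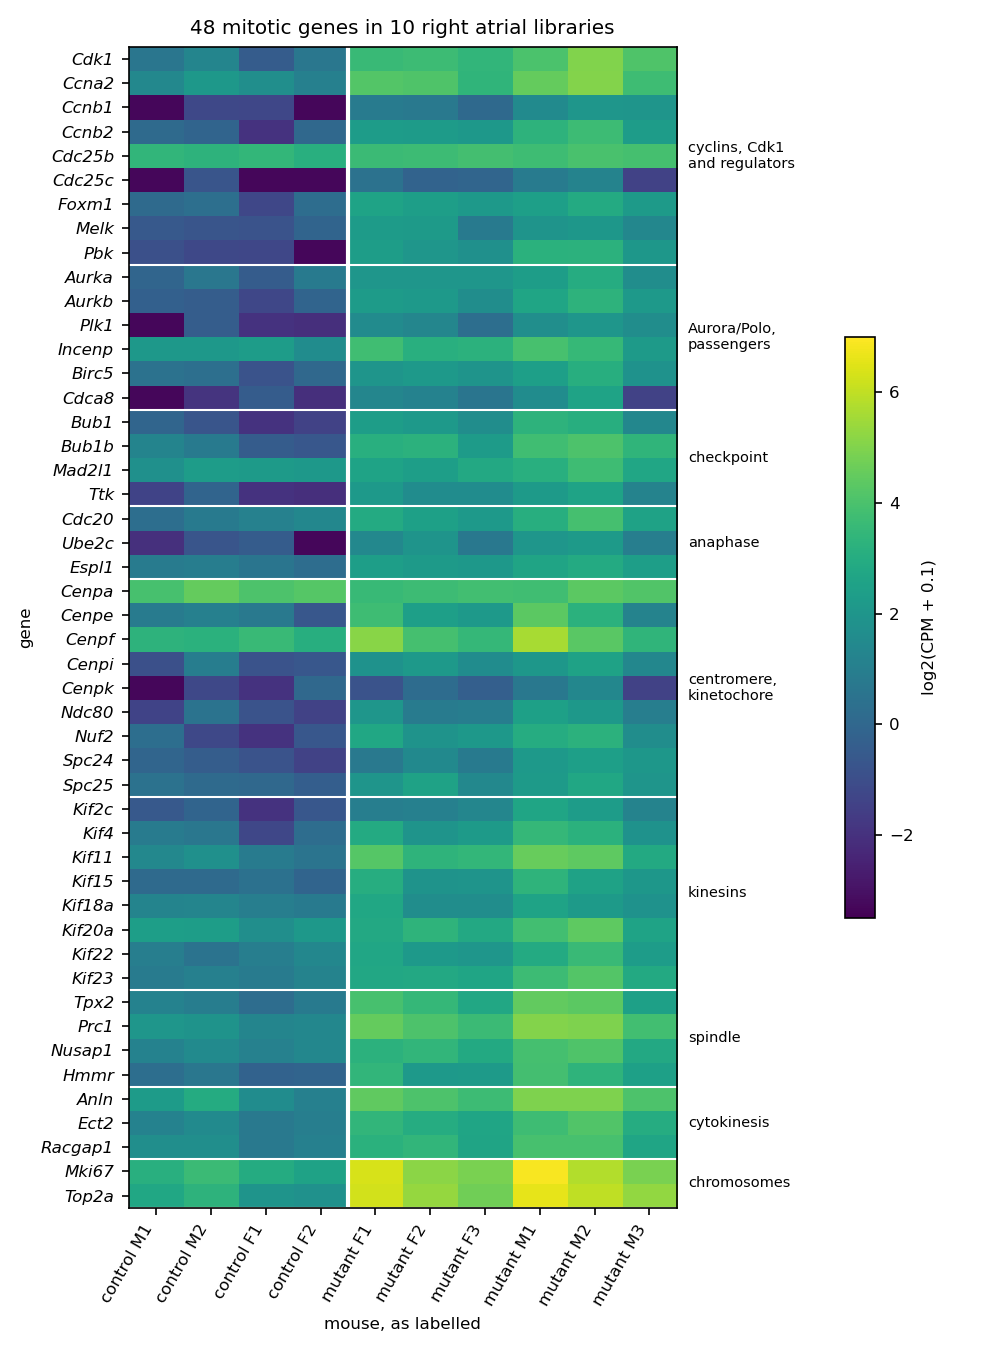
Level of each of the 48 genes, as log2(CPM + 0.1), in each of the 10 libraries; rows are genes grouped by role and the white vertical line separates 4 control from 6 mutant mice. Mutant columns are lighter than control columns in nearly every row, while *Cenpa* and *Cdc25b* differ little.

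The cyclins, Cdk1 and their regulators came first in the order of mitotic events. *Cdk1* (chr10:69335146-69352938, minus strand), the kinase that drives entry into mitosis, was at 1.43, 2.32, 0.627 and 1.49 CPM in controls M1, M2, F1 and F2, and at 10.5 (F3), 14.5 (median) and 32.2 CPM (M2) in the mutants. The groups did not overlap, and mutant M2 stood well above the next mutant, M3, at 17.2 CPM. Its log2 fold change was 3.51 ± 0.39 (SE). *Ccna2*, cyclin A2, was at 2.57, 4.14, 3.14 and 2.03 CPM in the same controls and ran from 10.3 (F3) through a median of 17.5 to 33.2 CPM (M2) in the mutants, with a log2 fold change of 2.71 ± 0.33. An exon of *Exosc9* lies over 12.5% of the exon bases of *Ccna2*, and since the counting of these libraries is not stated to use strand, reads there cannot be assigned to either.

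The largest fold changes of all 48 genes belonged to genes almost unread in controls. *Pbk* (chr14:65805837-65817822), a kinase active in mitosis, had 3, 2, 2 and 0 reads in the 4 controls and 15 to 65 reads in the mutants, with a log2 fold change of 4.39 ± 0.54. *Ccnb1* (chr13:100778650-100786570, minus strand), cyclin B1, had 0, 2, 2 and 0 reads in controls and 7 to 27 reads in mutants, with a log2 fold change of 3.82 ± 0.68. Both separated the groups, but the size of a fold taken from so few control reads is uncertain, and 193 bases of *Ccnb1* also occur in other annotated transcripts. The mean control signal of *Ccnb1*, 1.01, was just over the limit of 1 in the call rule, and without control M2 or F1 it fell below it, at log2 fold changes of 4.38 ± 0.83 and 4.35 ± 0.83. *Cdc25c*, a phosphatase that activates Cdk1, did not pass the filter. It had 3 reads in all 4 controls together and 46 in the 6 mutants, a ratio of 11 per library size (exact 95% interval 3.53 to 55.3, counting error only), and mutant M3, with 1 read, lay below control M2. *Ccnb2*, *Foxm1*, a transcription factor of mitotic genes, and *Melk*, a kinase, had log2 fold changes of 3.19, 2.59 and 2.55, without overlap.

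*Cdc25b* (chr2:131186949-131198497), the other Cdc25 phosphatase of the list, was detected at a higher level in controls. It was at 10.4, 9.6, 11 and 8.53 CPM in controls and between 12.6 (F1) and 15.7 CPM (M2), median 14, in mutants. The groups did not overlap, yet the log2 fold change of 0.50 ± 0.12 stayed below the 1.5-fold limit. Per kilobase of the longest annotated transcript, *Cdc25b* was the second most abundant of the 48 genes in controls, at 3.20 CPM per kb, after *Cenpa* at 4.81. The transcript read in the atrium may be shorter, so values and rankings per kilobase are uncertain. *Cdk1*, at 0.335 CPM per kb in controls, reached 3.85 in mutants, close to the 4.52 of *Cdc25b*.

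Aurora and Polo kinases and the chromosomal passenger complex followed. The passenger complex, which corrects wrong attachments of chromosomes, joins the kinase Aurora B (*Aurkb*) to *Incenp*, survivin (*Birc5*) and borealin (*Cdca8*). *Aurkb* was at 0.714, 0.662, 0.314 and 0.812 CPM in controls and at 3.07 (F3), 4.54 (median) and 9.76 CPM (M2) in mutants, a log2 fold change of 3.07 ± 0.40. *Birc5* was at 1.29, 1.16, 0.470 and 0.947 CPM in controls and ran from 3.54 (M3) through 4.02 to 8.45 CPM (M2), a log2 fold change of 2.32 ± 0.35. In both genes the groups were apart and M2 was the highest mutant.

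*Incenp*, the scaffold of the complex, was the most abundant of the 4 per kilobase in controls (1.17 CPM per kb), at 4.14, 4.14, 4.86 and 2.98 CPM, and ranged from 4.63 (M3) through a median of 10.4 to 15.1 CPM (M1) in mutants. Its groups overlapped, because mutant M3 lay below control F1, and its log2 fold change of 1.40 ± 0.27 was the smallest of the complex. *Cdca8* also overlapped: mutant M3 had 1 read and control F1 had 4. Its log2 fold change was 3.43 ± 0.76; without control F1 (4.49 ± 0.96) its mean control signal fell to 0.623, and without mutant F1, F2, M1 or M2 it no longer passed the filter on low counts. The kinases *Aurka*, which matures the spindle poles, and *Plk1*, which acts from entry to cell division, had log2 fold changes of 2.01 and 3.48 without overlap, *Plk1* from 0 to 4 reads per control. Without control M2 the log2 fold change of *Plk1* was 4.56 ± 0.65 and its mean control signal 0.61, under the limit of the call rule.

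The 4 spindle checkpoint genes had the highest median log2 fold change of the 9 roles, 3.25, with one gene far below it. *Bub1b*, which encodes the checkpoint protein BubR1, was at 2.29, 1.65, 0.627 and 0.541 CPM in controls and at 4.74 (F3), 9.77 (median) and 16.9 CPM (M2) in mutants, a log2 fold change of 3.04 ± 0.42. *Bub1* (chr2:127801122-127831865, minus strand), a kinase at the kinetochore, was at 0.857, 0.496, 0.157 and 0.271 CPM in controls and ran from 2.45 (M3) through 4.66 to 9.60 CPM (M1), a log2 fold change of 3.57 ± 0.52. *Ttk*, the kinase that starts checkpoint signalling, had a log2 fold change of 3.46. *Mad2l1* (chr6:66535390-66547220), whose protein Mad2 inhibits *Cdc20*, was at 3.29, 4.80, 4.55 and 4.2 CPM in controls and between 5.20 (F2) and 13.1 CPM (M2), median 6.75, in mutants. Its groups were apart by little, and its log2 fold change of 0.89 ± 0.26 was the third lowest of all; without control M1 its call was lost, at 0.80 ± 0.29.

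Genes of anaphase onset were low in controls. *Cdc20*, which activates the anaphase-promoting complex, was at 1.14, 1.65, 2.04 and 2.44 CPM in controls and at 4.32 (F3), 6.57 (median) and 15.0 CPM (M2) in mutants, a log2 fold change of 2.08 ± 0.37. *Espl1*, which encodes separase, the protease that cuts cohesin, was at 1.71, 1.82, 1.41 and 1.08 CPM in controls and ran from 4.18 (F3) through 5.19 to 7.57 CPM (M2), a log2 fold change of 1.86 ± 0.25. *Ube2c*, a ubiquitin-conjugating enzyme of the same complex, had 0 to 4 reads in controls and 7 to 31 in mutants, a log2 fold change of 3.27 ± 0.54. None of the 3 genes overlapped between groups. *Tnnc2*, a troponin gene, lies over 22.8% of the exon bases of *Ube2c*.

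Centromere and kinetochore genes ranged in log2 fold change from -0.30 to 3.35. *Cenpa* (chr5:30666777-30674830), the histone H3 variant that marks centromeres, was at 15.3, 22.7, 16.8 and 18.5 CPM in controls and at 11.7 (F1), 13.7 (median) and 20.4 CPM (M2) in mutants. The groups overlapped and the log2 fold change was -0.30 ± 0.16, the lowest of the 48 genes and the only one below 0. Without mutants M2 and M3, a setting added after the values were seen, it was -0.49 ± 0.14. *Cenpf*, a large protein of the outer kinetochore, was at 9.72, 9.10, 12.2 and 8.39 CPM in controls and ran from 10.3 (M3) through 17.2 to 49.9 CPM (M1). Mutants M3 and F3 lay within the range of the controls, and the call of *Cenpf*, at a log2 fold change of 1.26 ± 0.40, was lost without control M1 (1.26 ± 0.47), control M2 (1.23 ± 0.46), control F2 (1.19 ± 0.46) or mutant F1 (1.11 ± 0.40).

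*Cenpe*, a kinesin of the kinetochore, was at 1.71, 1.99, 1.57 and 0.541 CPM in controls and at 2.18 (M3), 7.18 (median) and 20.6 CPM (M1) in mutants, with a log2 fold change of 2.67 ± 0.57. Its groups were apart, but M3 lay only just above control M2. The 4 subunits of the Ndc80 complex, which grips microtubules, had log2 fold changes of 3.35 (*Nuf2*), 2.49 (*Spc24*), 2.46 (*Ndc80*) and 2.21 (*Spc25*), all without overlap. *Cenpi*, of the inner kinetochore, was at 2.28. *Cenpk*, of the inner kinetochore as well, did not pass the filter, with 0, 2, 1 and 7 reads in controls and 1 to 17 reads in mutants, and its groups overlapped.

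Kinesin motors gave no overlap in any of their 8 genes. *Kif11*, the motor that pushes spindle poles apart, was at 2.57, 3.31, 1.72 and 1.35 CPM in controls and at 7.35 (M3), 14.8 (median) and 23.8 CPM (M1) in mutants, a log2 fold change of 2.79 ± 0.37. *Kif23*, a motor of the central spindle, was at 1.71, 1.99, 1.72 and 2.17 CPM in controls, with a narrow spread, and ran from 6.27 (F3) through 7.21 to 17.9 CPM (M2), a log2 fold change of 2.35 ± 0.35. *Kif20a*, which works in cytokinesis, was at 5.14, 4.96, 3.14 and 4.2 CPM in controls and between 5.99 (M3) and 20.7 CPM (M2), median 8.55, in mutants, a log2 fold change of 1.33 ± 0.34. *Cdc23* lies over 29.3% of the exon bases of *Kif20a*, the largest such overlap of the 48 genes, so its control level and its fold change are uncertain. The other 5, *Kif2c*, *Kif4*, *Kif15*, *Kif18a* and *Kif22*, had log2 fold changes from 1.14 (*Kif18a*) to 2.60 (*Kif2c*), and *Pdzd11* lies over 15.1% of the exon bases of *Kif4*.

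The 4 spindle assembly genes were close to one another. *Prc1*, which bundles microtubules of the central spindle, was at 4, 3.64, 2.35 and 2.44 CPM in controls and at 12.4 (F3), 19.8 (median) and 33.4 CPM (M1) in mutants, a log2 fold change of 2.81 ± 0.33. *Rccd1* lies over 11.1% of the exon bases of *Prc1*. *Tpx2*, which activates Aurora A, was at 2.14, 1.82, 1.10 and 1.62 CPM in controls and ran from 5.45 (M3) through 13.2 to 22.3 CPM (M1), a log2 fold change of 3.02 ± 0.42. *Nusap1*, a microtubule-binding protein, was at 2.14, 2.81, 2.04 and 2.44 CPM in controls and between 7.08 (M3) and 17.0 CPM (M2), median 9.92, in mutants, a log2 fold change of 2.23 ± 0.29. *Hmmr*, of the spindle poles, was at 2.96, and in all 4 genes every mutant lay above every control.

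The 3 genes of cytokinesis had log2 fold changes between 2.09 and 2.34. *Anln*, which encodes anillin of the contractile ring, was at 4.72, 7.61, 2.98 and 2.03 CPM in controls and at 12.7 (F3), 19.0 (median) and 31.5 CPM (M2) in mutants, a log2 fold change of 2.34 ± 0.34. *Racgap1* and *Ect2* encode partners that place the division plane. *Racgap1* was at 3.14, 3.14, 1.57 and 2.03 CPM in controls and ran from 6.13 (F3) through 9.84 to 15.4 CPM (M2), a log2 fold change of 2.09 ± 0.32. *Ect2* was at 2.14, 2.81, 1.57 and 1.89 CPM in controls and between 6.27 (F3) and 17.8 CPM (M2), median 9.15, in mutants, a log2 fold change of 2.33 ± 0.32. The groups were apart in all 3 genes, and F3 was the lowest mutant in each.

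*Mki67* and *Top2a* encode proteins that coat and untangle mitotic chromosomes. *Mki67* (chr7:135689784-135716361, minus strand), the proliferation marker Ki-67, was at 8.72, 12.6, 7.68 and 5.68 CPM in controls and at 29.4 (F3 and M3), 45.6 (median) and 118 CPM (M1) in mutants, a log2 fold change of 2.77 ± 0.42. *Top2a* (chr11:98992943-99024189, minus strand), topoisomerase II alpha, was at 6.72, 9.76, 3.76 and 3.38 CPM in controls and ran from 26.5 (F3) through 51.6 to 97.2 CPM (M1), a log2 fold change of 3.29 ± 0.40. Per kilobase, *Top2a* was the highest of the 48 genes in mutants, at 11 CPM per kb, followed by *Ccna2* at 6.45, *Prc1* at 5.97 and *Mki67* at 5.81. In both genes the lowest mutant exceeded the highest control by more than the whole range of the controls.

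**Figure D3:**
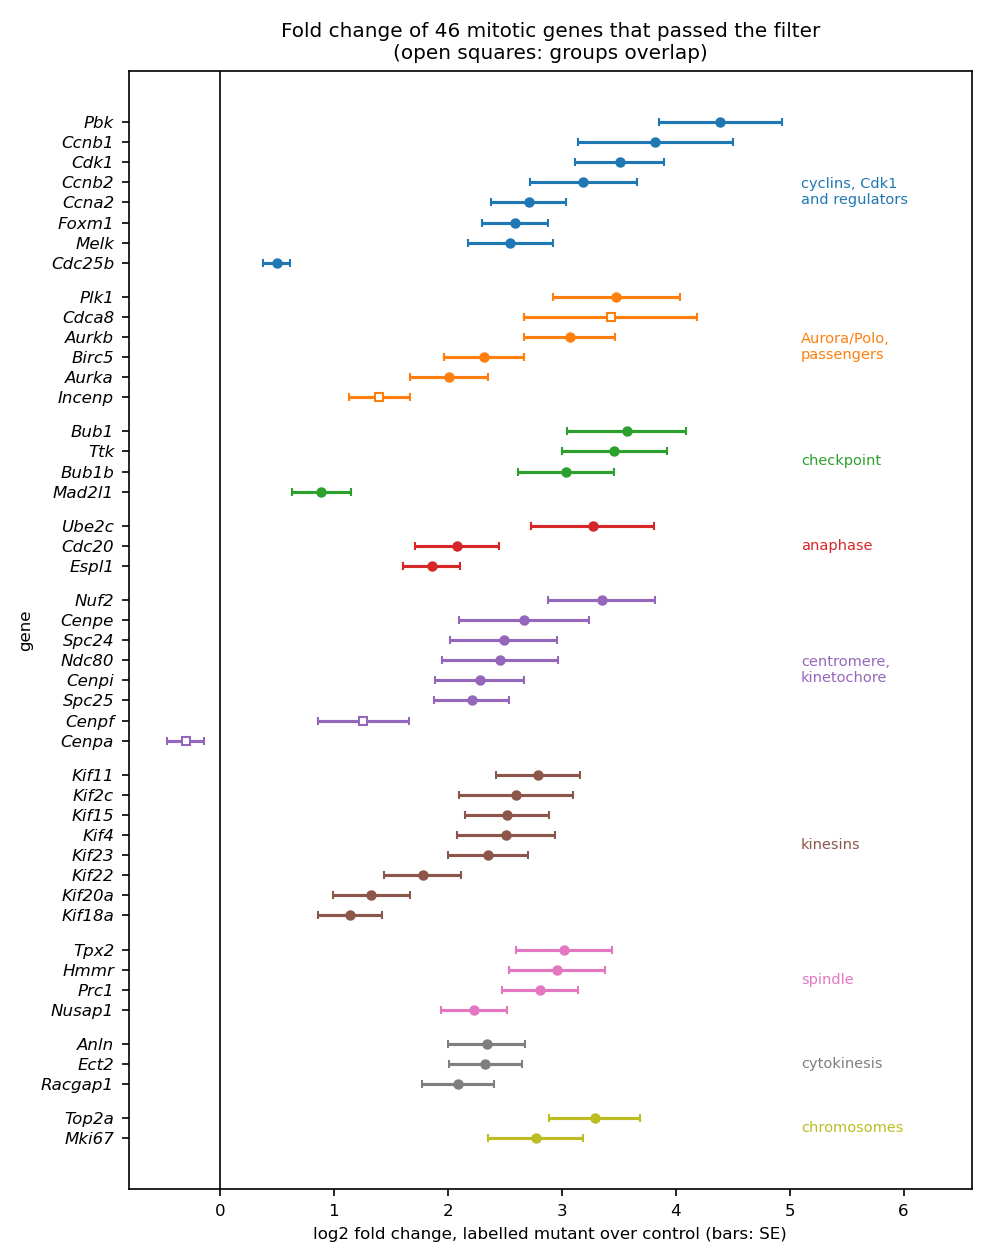
Log2 fold change of labelled mutant over control, with its SE from edgeR, for the 46 genes that passed the filter, grouped and coloured by role. Filled circles mark genes in which every mutant lay above every control, open squares the others; *Pbk* is highest at 4.39 and *Cenpa* lowest at -0.30.

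The mutant mice also differed among themselves. Of the 48 genes, 32 were highest in M2, 14 in M1 and 2 in F1, and none was highest in F2, F3 or M3. The lowest mutant was F3 for 21 genes, M3 for 18, F2 for 5 and F1 for 4. Which of M1 and M2 was higher tended to go with the length of the gene's longest annotated transcript, with exceptions. The transcript read in the atrium may be shorter, and gene counts do not show which one it was. The longest transcripts, *Cenpf*, *Mki67* and *Cenpe*, at 11130, 10061 and 7910 bases, were all highest in M1, whereas *Ccnb2*, *Cdc20* and *Spc24*, at 1531, 1793 and 1696 bases, were highest in M2. The long *Mad2l1* and *Espl1*, at 7557 and 6658 bases, were nevertheless highest in M2. *Pbk*, at 1720 bases, was nearly equal in both, at 9.47 CPM in M2 and 9.26 CPM in M1. Spearman's rho between the log2 ratio of M2 to M1 and transcript length was -0.47 over the 48 genes, a description across genes that share their libraries.

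The same tendency was present across the table. Over the 46 genes, rho between a gene's deviation from the mutant mean and its length was 0.52 in F1, 0.36 in M1, 0.04 in F3, -0.28 in M3, -0.40 in F2 and -0.44 in M2. Over 12951 tested genes it was 0.24, 0.25, 0.10, -0.31, 0.05 and -0.30 in the same mice. The sign was thus shared with the whole table in every mouse except F2. With each library's length trend removed, the median log2 fold change of the mitotic genes was 2.58 and 44 met the call rule, against 7.86% of all genes called higher.

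**Figure D4:**
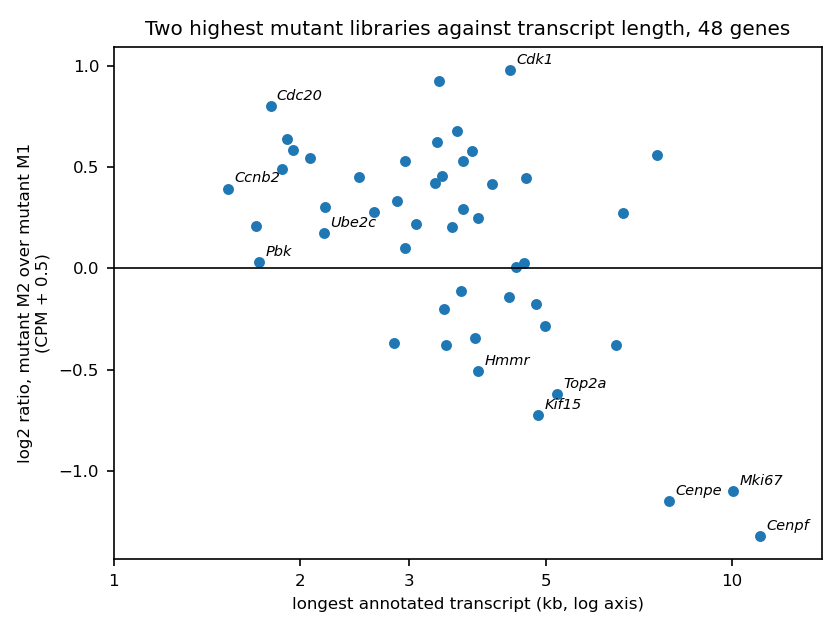
Log2 ratio of mutant M2 to mutant M1 (CPM + 0.5) against the longest annotated transcript in kb (log axis) for the 48 genes, each point one gene. Points for the long transcripts *Cenpf*, *Mki67* and *Cenpe* lie below 0, those for the long *Mad2l1* and *Espl1* above it, and most points for short ones above it (rho = -0.47).

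**Figure D5:**
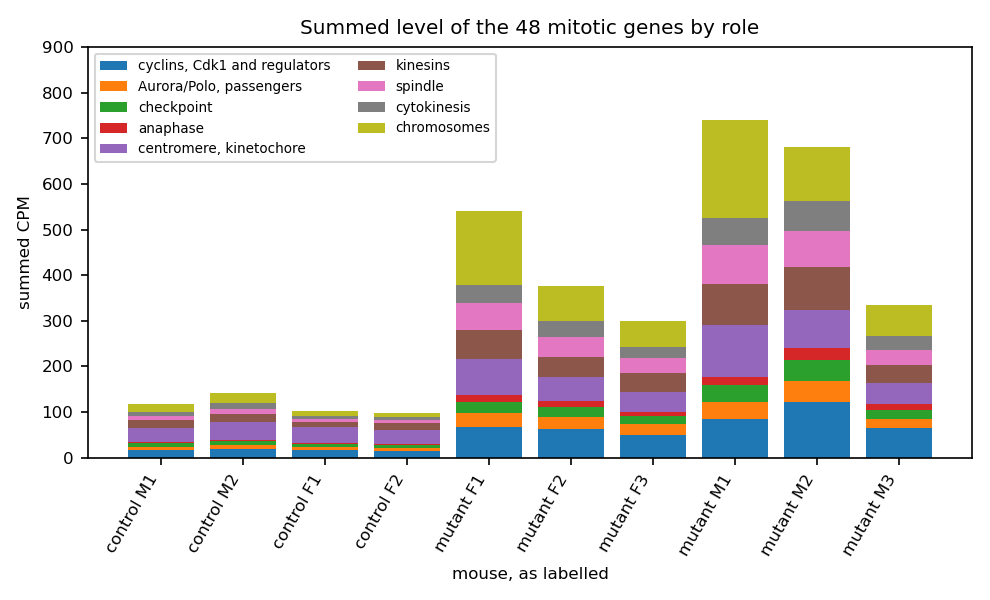
Summed CPM of the 48 genes in each mouse, stacked by role, from a baseline of 0. Controls lie between 97.45 and 141.8 CPM and mutants between 298.5 (F3) and 741.4 CPM (M1), and the share of *Mki67* and *Top2a* is larger in M1 and F1 than in M2.

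The choice of genes did not use sex, so males and females were compared among the 6 mutant mice, whose sex genes matched their labels. The summed level was 584.9 ± 220 CPM in males and 404.3 ± 123 CPM in females (SD, n = 3 each), and the groups overlapped, since M3 at 333.8 lay between F3 and F2. In edgeR, 45 of 46 genes tested were higher in males, with a median log2 difference of 0.62, against 49.5% of all genes. No member reached an adjusted p under 0.05, while 0.0621% of the 12881 genes tested did. At an unadjusted p under 0.05 there were 16 members, against 6.76% of all genes, and DESeq2 gave 0 adjusted and 17 unadjusted. The nearest were *Ccnb1*, with a log2 difference of 1.27 ± 0.33, and *Spc24*, of the Ndc80 complex, with 1.22 ± 0.30 (edgeR adjusted p = 0.456 for both). The 46 genes were read in the same 6 libraries and are not separate observations.

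Whether the genotype difference itself differed between sexes was tested as an interaction over all 10 mice. With the sexes as labelled, none of 47 members had an adjusted p under 0.05 in edgeR, against 0.281% of 13542 genes. The estimate was above 0 in 23 members and below 0 in 24, with a median of -0.03, and 1 member had an unadjusted p under 0.05 in edgeR and 1 in DESeq2. This test rests on the control labels that *Xist* and *Ddx3y* went against. With the sexes of the controls exchanged, 45 of 47 estimates were above 0, the median was 1.26, 8 members had an unadjusted p under 0.05 and again none an adjusted one (lowest adjusted p = 0.264, edgeR). With 2 control mice of each labelled sex, differences of this size could not be settled.

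Other genes of mitosis, listed without regard to how they moved in this fit but with earlier results of these data known, were also examined. These and the S phase genes below are cell cycle genes too, and a rise of such genes in this contrast guided the choice. Their counts and p-values are therefore a description and not independent evidence. Of 121 such genes in 4 lists, 108 were tested, 46 were called higher and 3 lower, with a median log2 fold change of 0.40. Over all 13084 genes tested, 8.50% were called higher and 7.16% lower, and these shares apply to each list below. Among other spindle, kinesin and cytokinesis genes, 22 of 32 were higher and 1 lower (median 1.99). The spindle pole gene *Aspm* went from 2.65 ± 1.21 CPM (SD, n = 4) to 17.9 ± 8.99 CPM (SD, n = 6), a log2 fold change of 2.76 ± 0.39 (edgeR adjusted p = 0.000174). *Haus8*, of the augmin complex, went from 17.2 ± 0.932 to 27.3 ± 5.05 CPM, a log2 fold change of 0.66 ± 0.13 (edgeR adjusted p = 0.00237). *Clasp1*, a microtubule-stabilizing protein also used outside mitosis, fell from 665 ± 41.9 to 335 ± 40.8 CPM (log2 fold change -0.99 ± 0.10, edgeR adjusted p = 1.78e-05).

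Other centromere and kinetochore genes rose in 12 of 29 tested and fell in none, with a median of 0.41. They were led by *Casc5*, the kinetochore scaffold, at a log2 fold change of 2.49 ± 0.41 (edgeR adjusted p = 0.00059), and by *Sgol2*, a protector of centromeric cohesin, at 1.71 ± 0.26 (edgeR adjusted p = 0.00031). Of 27 other regulators of mitotic entry and exit tested, 7 were higher and 1 lower, with a median of 0.11. *Wee1*, the kinase that restrains Cdk1, went from 14.5 ± 4.76 to 31.1 ± 8.81 CPM (log2 fold change 1.11 ± 0.24, edgeR adjusted p = 0.0032), and *Mastl*, a kinase that keeps the mitotic state, had a log2 fold change of 1.31 ± 0.29 (edgeR adjusted p = 0.00424). *Pttg1*, which encodes securin, the inhibitor of separase, was lower, at 60.8 to 77.4 CPM in controls and 4.26 to 61.5 CPM in mutants (log2 fold change -1.54 ± 0.52, edgeR adjusted p = 0.0375), opposite in sign to *Espl1*.

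Condensin and cohesin genes, which fold and hold chromosomes, were mostly not called: 5 of 20 were higher and 1 lower, with a median of -0.19. Those called higher with lower counts had larger log2 fold changes: 2.55 ± 0.34 (*Ncapg*), 2.21 ± 0.37 (*Esco2*) and 1.91 ± 0.29 (*Ncaph*). *Cdca5*, at 3.50 ± 0.51, missed only the limit on the control signal. *Smc2* and *Ncapg2*, of condensin, had log2 fold changes of 0.99 ± 0.22 (edgeR adjusted p = 0.0042) and 0.95 ± 0.24 (edgeR adjusted p = 0.00987), and *Nipbl*, the cohesin loader, was lower at -0.63 ± 0.18 (edgeR adjusted p = 0.0177). S phase genes were higher in 18 of 27, against 8.50% of all genes tested, with none lower and a median of 0.80. The helicase subunit *Mcm6* went from 18.5 ± 2.69 to 29.8 ± 5.07 CPM (log2 fold change 0.69 ± 0.14, edgeR adjusted p = 0.00295) and the sliding clamp *Pcna* from 11.4 ± 1.23 to 21.7 ± 4.26 CPM (0.91 ± 0.15, edgeR adjusted p = 0.000585).

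The CHR string was also counted in the promoters of these other mitosis genes, as a description. A CHR match within 50 bases of the start was present in 17 of the 31 promoters of those called higher (54.8%). It was present in 7 of the 48 promoters of those tested and not called higher (14.6%), and in 2.84% of the tested protein-coding genes. The calls come from the contrast that guided the choice of cell cycle genes. Whether the CHR string bears on them was not tested.

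Markers of the cell types that the atrium can hold were measured beside these genes. Over all genes tested, 8.50% were called higher and 7.16% lower, and in short lists a count of 1 or 2 is not far from these shares. Macrophage markers were called higher in 7 of 9, among them *C1qa* and *Csf1r*, and their summed level was 583 to 863 CPM in controls and 948 to 1386 CPM in mutants. Among the mutants it was highest in M2, where 32 of the 48 mitotic genes were highest, and lowest in M1, where 14 of them were highest and where their sum was highest. Fibroblast markers were higher in 2 of 6 (*Col1a1* and *Col1a2*; sum 2650 to 3303 against 3241 to 4468 CPM), smooth muscle and pericyte markers in 1 of 5 (261 to 323 against 336 to 701 CPM), endothelial markers in 0 of 6 (1056 to 1513 against 1225 to 1507 CPM) and epicardial markers in 0 of 4 (288 to 303 against 179 to 343 CPM). Cardiomyocyte markers were higher in 2 of 9 (*Actc1* and *Tnnt2*, log2 fold changes 0.90 and 1.12) and lower in 2 of 9 (*Myl7* and *Nppa*, -2.73 and -0.65). Their sums were 140500 to 191200 CPM in controls and 88950 to 160000 CPM in mutants. *Ttn*, which was not called, made up much of these sums, at a mean of 82400 CPM in controls and 51900 CPM in mutants. The defining markers of heart muscle were abundant in every library.

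None of the T cell, thymocyte, B cell and neutrophil markers passed the filter. Summed T cell markers were at 1.49 to 2.57 CPM in controls and 1.02 to 3.07 CPM in mutants, thymocyte markers at 0.496 to 0.784 against 0 to 1.73 CPM, and B cell markers at 1.65 to 4.43 against 0.874 to 3.09 CPM. Summed neutrophil markers were at 1.06 ± 0.626 CPM in controls (SD, n = 4; range 0.47 to 1.89) and 3.65 ± 2.74 CPM in mutants (SD, n = 6; range 0.857 to 7.57), highest in M2 and lowest in M1, with overlapping groups. Of the erythroid markers only *Alas2* was tested and it was called higher (sum 10.3 to 14.8 against 9.90 to 43.8 CPM, overlapping), while *Hba-a1* and *Hbb-b1* were listed at 0 in all libraries. Adipocyte markers were not tested and summed to 0.47 to 4.14 CPM in controls and 0 to 20.8 CPM in mutants, and of the 3 Schwann cell markers 1 was tested and not called (6.43 to 8.77 against 3.81 to 8.50 CPM). Which of these cell types carried the mitotic mRNAs, and the part of the macrophage, neutrophil and fibroblast differences in the result, was not tested.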

How the data were processed

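RNA of right atria from 4 control and 6 *Tbx5* mutant mice had been sequenced as single-end reads. The submitters' processing notes name FastQC, TopHat2 2.0.11, featureCounts, DESeq2 and mm10. Protocols for polyA-selected and for RNA depleted of ribosomal RNA are both described, a globin depletion step is listed, and the study's methods call its left atrial libraries stranded; whether the counting of these right atrial libraries used strand is not given in the sources used here. The table deposited by the authors holds whole-number counts per gene and, beside them, a normalized signal, counts divided by a size factor, of which only the control mean was used here. It also holds the authors' own comparison: log2 fold changes, scores and p-values, which were not used.

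Counts were filtered (filterByExpr), scaled by TMM and fitted with edgeR 4.0.16 (quasi-likelihood, R 4.3.3) over all genes, with Benjamini-Hochberg adjustment; DESeq2 1.42.0 was an alternative. Genes were called at an adjusted p under 0.05, a fold change over 1.5 and a mean deposited control signal over 1. Values were given for the 3 members with the highest mean count in each role, and for the 3 highest and 3 lowest fold changes of all members. Controls were given per mouse and mutants as lowest, median and highest, or reads were given as ranges. Of other lists, the 2 called genes with the highest mean count in each direction were given, and more of the condensin and cohesin genes. The members and lists were chosen with earlier results of these data known. In simulated data on 12973 genes, the genotype fit recovered 167 of 200 genes changed 2-fold. The fit of sex among mutants recovered 148 of 200 on 12790 genes, and the interaction fit 25 of 200 on 13057 genes. Of the 200 changed genes, 195, 198 and 200 were tested in these fits, and 12, 15 and 3 unchanged genes were also called. Recovery asked for an adjusted p under 0.05 and the right sign, without the limits on fold change and control signal. Transcript lengths and loci are from GENCODE M21 (GRCm38). The length of a gene is that of its longest annotated transcript, also in values per kilobase. Depth was 5703775 to 7095141 counts per library, so 3 counts, taken as the floor, correspond to 0.4 to 0.817 CPM. Nothing says that mice were litter-matched or how they were batched; p-values measure the spread between these mice.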

Additional observations from a re-analysis of the deposited data

Results flagged for a closer look

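Within a group, one mouse stood apart from the others by Dixon's test in 6 of 124 groups of values examined, about as many as the 6.2 that chance gives. In the mutants, M2 was at 32.2 CPM for *Cdk1*, with the next mouse at 17.2, and at 8.45 CPM for *Birc5*, with the next at 5.31. In controls, M2 was at 0.496 CPM for *Cdc25c*, whose other controls had no reads, and at 1.82 CPM for *Cenpi*, with the next at 0.541. Summed adipocyte markers were at 20.8 CPM in mutant M2 against 2.51 in the next mutant, and summed B cell markers at 4.43 CPM in control M1 against 2.03 in the next control.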

How the results depend on the processing

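The median log2 fold change of the members that passed the filter lay between 2.30 and 2.80 when each mouse was left out in turn, and the number that met the call rule between 41 and 44. In these fits, 7.51% to 8.77% of all genes tested were called higher. An adjusted p under 0.05 was lost by *Mad2l1* (without control M1) and *Cenpf* (control M1, M2 or F2, or mutant F1). *Ccnb1* (control M2 or F1), *Plk1* (control M2) and *Cdca8* (control F1) kept theirs with higher fold changes and missed the limit on the control signal, and *Cdca8* was not tested without mutant F1, F2, M1 or M2. The counts of other mitosis genes called lay between 43 and 50, and of S phase genes between 16 and 20. Requiring a mean count of at least 50 left 13 members tested and 11 called, with 10 other mitosis genes and 7 S phase genes called, because fewer genes were tested. Of all genes tested there, 6.54% were called higher. Among mice labelled female or male alone, 37 members were called in each, with the control sex labels that *Xist* and *Ddx3y* went against. Of all genes tested, 7.91% were called higher among females and 5.77% among males. Lost among females were *Ccnb1*, *Pbk*, *Plk1* and *Ttk*, which missed the control signal, and *Mad2l1*, *Cenpf* and *Kif18a*, which missed the adjusted p. Lost among males were *Cdca8*, which missed the control signal, and *Incenp*, *Cenpe*, *Cenpf*, *Cenpi*, *Kif18a* and *Kif20a*, which missed the adjusted p. Without mutants M2 and M3 together, chosen after seeing the data, 41 members, 39 other mitosis genes and 15 S phase genes were called, against 6.76% of all genes called higher. No member was called for sex or for the interaction under any alternative run. Across 572 alternative fits of 28 named members, none changed sign, 13 lost an adjusted p under 0.05 and 1 gained it.

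Mice with the same replicate number did not deviate together (correlations of deviations from -0.0387 to 0.0409), which cannot exclude shared litters or batches. These numbers include the labelled sex, which *Xist* and *Ddx3y* went against in all 4 controls. By *Xist* and *Ddx3y*, each such pair joins a male and a female, so it may not be a true pair. A fit with the number as a block gave a median of 2.72, 44 members, 51 other mitosis genes and 21 S phase genes called. Of all genes tested there, 8.06% were called higher. Mutants F3 and M3 have no control of the same number and do not inform the group difference in that fit. Depth limited *Cdc25c*, *Ccnb1* and *Pbk*, with 3 or fewer reads in every control.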
